A study of Mus musculus with 12 samples.

Results

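The genes described here are Dusp4, Dusp5, Dusp6, Spry1 and Spry2, feedback inhibitors of ERK (extracellular signal-regulated kinase) signalling, followed in the mouse hippocampus 1 h after a seizure-inducing injection. Every probe set of the Affymetrix MG-U74B array annotated to one of these 5 genes alone was taken, which gave 6 probe sets of 12411, with 2 for Dusp4 and 1 for each other gene. A probe set was tested when its log2 value lay over 4 in at least 3 of the 12 arrays, and this left 6334 probe sets in all, including the 6 described here. Animals received 20 mg/kg kainate, a glutamate receptor agonist, or saline into the peritoneum. They were male and female littermates of 5 to 6 weeks, caged singly and handled for 5 days. The 4 groups were control with saline, control with kainate, mutant with saline and mutant with kainate, with 3 arrays each, and each array carried hippocampal RNA pooled from 3 animals. According to the title of the series, the mutants lack CREB and CREM, transcription factors that answer to cAMP and calcium. The sources used here do not name their alleles, strain or any Cre driver.

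ERK is switched on in neurons by synaptic calcium entry and by growth factor receptors that act through Ras, Raf and MEK, and it enters the nucleus to drive immediate early transcription. The same signal induces its own brakes. Dusp5 and Dusp4 encode nuclear phosphatases that remove phosphate from MAP kinases, of which Dusp5 is specific for ERK and also anchors it in the nucleus, while Dusp4 also acts on other MAP kinases. Dusp6 encodes a cytoplasmic phosphatase specific for ERK. Spry1 and Spry2 encode Sprouty proteins, which act upstream and restrain signalling from receptor tyrosine kinases to Ras and Raf.

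The arrays numbered 1 stood apart from the others in all 4 groups. The first principal component, with 52.8% of the variance over the tested probe sets, gave them negative scores against positive ones for numbers 2 and 3. Array medians lay between 3.77 and 4.07 log2 units. The 3′ minus 5′ log2 difference of the Gapdh control probe sets was -0.42 to -0.36 in arrays numbered 1 and -0.33 to -0.03 in the others, while that of beta-actin overlapped, at 1.44 to 1.74 and 1.51 to 1.82. The Creb1 probe set averaged 7.35 and 6.98 in control arrays with saline and kainate and 8.23 and 7.97 in those labelled mutant, and neither genotype difference passed (limma adjusted p = 0.523 and 0.391). The sources used here do not say whether its probes fall inside the deletion, so it checks nothing about the loss, and these arrays are called labelled mutant. Of the hippocampal principal neuron markers, 6 of 13 were tested and their mean log2 level was 8.02 to 8.67 over the arrays.

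The first comparisons asked how kainate changed these inhibitors in each genotype. Dusp5 and Spry2 rose in both genotypes, and 1 of the Dusp4 probe sets rose in arrays labelled mutant. The 5 genes were chosen with earlier results of these data known, so the shares beside their calls are a description only. In control animals 2 of the 6 probe sets passed, both higher, where 0.142% of all tested probe sets passed as higher. In animals labelled mutant 3 of the 6 passed, all higher, against a background of 0.174%. When both genotypes were averaged 4 of the 6 passed, all higher, namely Dusp5, Spry2, Spry1 and 1 of the Dusp4 probe sets, against 0.3%. Dusp6 entered the test only through kainate arrays and is left out of the summaries that follow. The median change of the other 5 probe sets in that comparison was 0.82 log2 units, and that of all tested probe sets was 0.01. Each genotype is compared with its own saline arrays, and the average shares arrays with both comparisons. Of these 5 the same 4 passed with the replicate number as a block, where 2.21% of all probe sets passed as higher, and without the 4 arrays numbered 1, where 8.76% did. Kainate values lay above all saline values for all 5 in controls, where 13.1% of tested probe sets did so, and for 4 of the 5 in labelled mutant arrays, where 3.66% did.

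**Figure D1:**
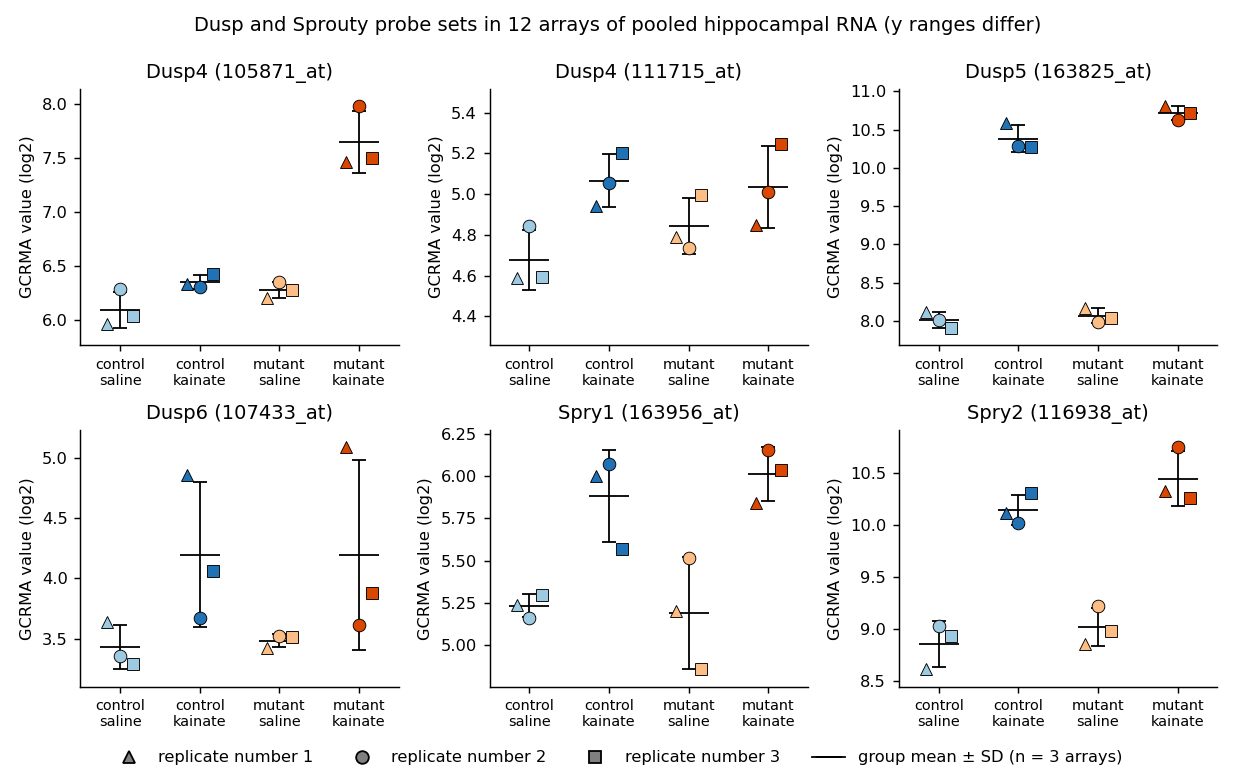
Log2 GCRMA value of each probe set (y axis, a separate range per panel) in control and labelled mutant arrays with saline or kainate (x axis). Symbols mark the replicate number of each array, and lines give the group mean ± SD over 3 arrays. The Dusp5 values lay between 7.91 and 8.17 in saline arrays and between 10.27 and 10.81 in kainate arrays, while 1 Dusp4 probe set was high in labelled mutant kainate arrays (7.46 to 7.98).

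Dusp5 had the smallest p-value of all 6334 probe sets in both genotypes. Its log2 values in control saline arrays were 8.12, 8.01 and 7.91 for numbers 1, 2 and 3, and after kainate they were 10.58, 10.29 and 10.27. In labelled mutant arrays they were 8.17, 7.99 and 8.04 with saline and 10.81, 10.63 and 10.72 with kainate. Every kainate array lay more than 2 log2 units above every saline array, and values within a group differed little. The rise was 2.37 log2 units in controls (5.17-fold, SE 0.115, adjusted p = 5.21e-06) and 2.65 in labelled mutant arrays (6.28-fold, SE 0.115, adjusted p = 1.65e-06). By replicate number it was 2.46, 2.29 and 2.36 in controls and 2.63, 2.64 and 2.68 in labelled mutant arrays, so that the arrays numbered 1 gave about the same change as the others. The 4 group means came in the order control saline, 8.01, labelled mutant saline, 8.07, control kainate, 10.38, and labelled mutant kainate, 10.72. The values of the saline groups overlapped and those of the kainate groups did not.

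The start region of Dusp5 is shown with those of Spry2 and Spry1 because these 3 genes rose with kainate averaged over genotypes. The windows run from 250 bases before to 50 after the annotated start and were taken from RefSeq on build GRCm38.p6, on which 4 of the 5 genes had a window (Dusp5, Dusp6, Spry1 and Spry2). Capitals mark matches to the searched motifs, which were the full cAMP response element TGACGTCA, its partial form TGACG, the CArG box, which is the motif of serum response factor, and the ETS core CCGGAA. Both strands were read, and TGACG also lies within every full element. Dusp5 lies at chr19:53528895-53529194 on the plus strand, Spry2 at chr14:105896770-105897069 on the minus strand and Spry1 at chr3:37639697-37639996 on the plus strand.
Dusp5: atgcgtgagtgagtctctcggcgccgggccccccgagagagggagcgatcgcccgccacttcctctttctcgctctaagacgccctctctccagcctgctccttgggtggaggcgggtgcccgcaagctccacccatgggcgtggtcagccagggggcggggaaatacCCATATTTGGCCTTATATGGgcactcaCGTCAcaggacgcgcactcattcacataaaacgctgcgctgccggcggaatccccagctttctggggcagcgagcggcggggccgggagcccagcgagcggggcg
Spry2: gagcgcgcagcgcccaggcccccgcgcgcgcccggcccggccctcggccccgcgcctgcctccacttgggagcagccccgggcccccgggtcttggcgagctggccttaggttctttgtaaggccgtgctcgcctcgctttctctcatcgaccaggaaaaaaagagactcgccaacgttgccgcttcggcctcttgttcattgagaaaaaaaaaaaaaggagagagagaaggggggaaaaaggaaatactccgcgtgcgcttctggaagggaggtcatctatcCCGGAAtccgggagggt
Spry1: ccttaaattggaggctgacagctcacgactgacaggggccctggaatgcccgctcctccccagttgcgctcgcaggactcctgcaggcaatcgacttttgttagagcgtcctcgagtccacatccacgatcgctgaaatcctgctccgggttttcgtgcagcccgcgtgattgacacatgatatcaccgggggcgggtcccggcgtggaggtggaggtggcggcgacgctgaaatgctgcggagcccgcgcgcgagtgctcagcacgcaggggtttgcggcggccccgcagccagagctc
The Dusp5 window held 2 CArG boxes next to each other, CCATATTTGG with its first base at -82 and CCTTATATGG at -72 relative to the start, and a TGACG match on the minus strand at -55. A CArG box was found in 1.63% of 32851 windows of the same length, and 0.0183% held 2 or more. TGACG was found in 20.8% of the windows and the full element in 1.79%, with no full element in the 4 windows of these genes. The Spry2 window held 1 ETS core, present in 14.9% of windows, and the Spry1 and Dusp6 windows had no match to the searched letters. A match describes the sequence and was not tested as a binding site here.

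Dusp4 was measured by 2 probe sets that gave different accounts. The first (105871_at, designed from the sequence AI844617) had log2 values of 5.95, 6.28 and 6.03 in control saline arrays and 6.33, 6.30 and 6.42 in control kainate arrays. In arrays labelled mutant it read 6.20, 6.34 and 6.27 with saline and 7.46, 7.98 and 7.49 with kainate. All 3 labelled mutant kainate arrays lay above every other array. The change with kainate was 0.26 in controls (SE 0.152, adjusted p = 0.459) and 1.37 in labelled mutant arrays (2.59-fold, SE 0.152, adjusted p = 0.00383, and 0.178 when only the compared groups were fitted). The second probe set (111715_at, designed from AA739067) read 4.59, 4.85 and 4.59 in control saline arrays and 4.94, 5.05 and 5.20 in control kainate arrays. For labelled mutant arrays the values were 4.79, 4.74 and 5.00 with saline and 4.85, 5.01 and 5.25 with kainate. Its kainate values lay above all its saline values in controls, where 13.1% of all tested probe sets did so. In labelled mutant arrays its values overlapped. Its change was 0.39 in controls (adjusted p = 0.424) and 0.19 in labelled mutant arrays (adjusted p = 0.927).

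Whether the Dusp4 probe sets changed unequally was tested as the within-array difference of their log2 values, together with all 1676 pairs of tested probe sets of the 1017 genes that had more than 1. After kainate in arrays labelled mutant, the first changed by 1.18 more than the second (95% interval 0.74 to 1.62), and this pair had the smallest p-value of all 1676. It did not pass (limma adjusted p = 0.18), and no other pair did either (0%). With the replicate number as a block it passed (adjusted p = 0.0191), where 0.179% of pairs passed. It also passed without the arrays numbered 1 (limma adjusted p = 0.018). The share of all pairs passing in that fit is not available, so this call has no background beside it. In controls the difference was -0.13 (95% interval -0.57 to 0.31). Labelled mutant against control after kainate differed between the probe sets by 1.33 (95% interval 0.89 to 1.77, adjusted p = 0.0631). It passed with the block (adjusted p = 0.0052, where 0.119% of pairs passed) and not without the arrays numbered 1 (1.38, adjusted p = 0.1). For kainate averaged over genotypes the difference was 0.53 (adjusted p = 0.183, with the block 0.0364, where 10.9% of pairs passed, and without the arrays numbered 1 0.0639). The sources used here do not say which stretch of the Dusp4 transcript each probe set reads.

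**Figure D2:**
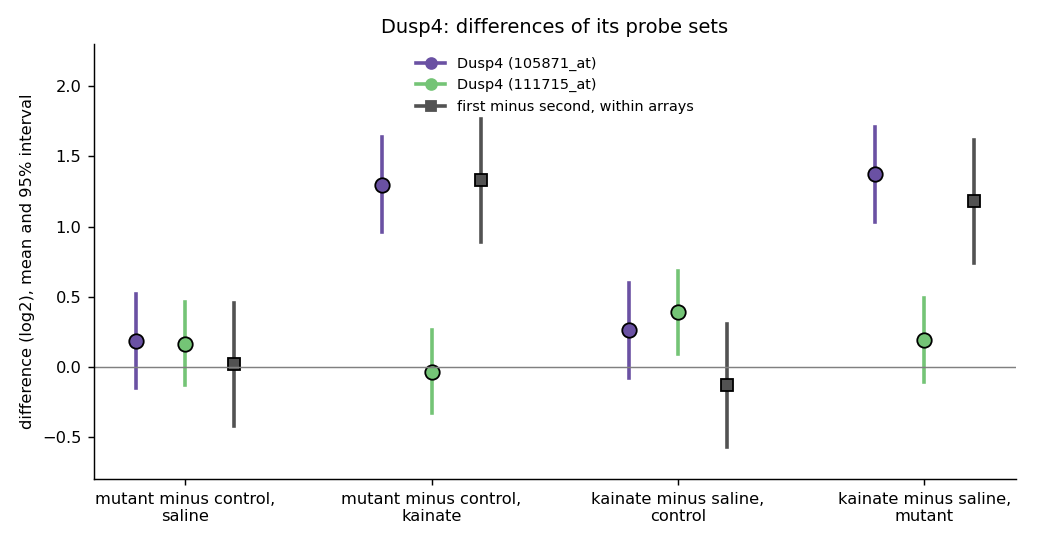
Log2 differences of the Dusp4 probe sets (y axis, mean and 95% interval over 3 arrays per group) for genotype within treatment and for kainate within genotype (x axis), with the within-array difference of the 2 probe sets as squares. The first probe set stood at 1.30 for genotype after kainate and the second at -0.03, while both lay near 0.2 with saline.

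Dusp6 was near the lower end of the measured range. It passed the filter through exactly 3 arrays with a value over 4, all of them kainate arrays, so its place among the tested probe sets already favours a higher kainate level. The log2 values were 3.64, 3.36 and 3.29 in control saline arrays and 4.85, 3.67 and 4.06 in control kainate arrays. For labelled mutant arrays they were 3.42, 3.52 and 3.51 with saline and 5.09, 3.62 and 3.88 with kainate. The arrays numbered 1 were the highest of both kainate groups and stood well apart from the others there. The change was 0.77 in controls (SE 0.364, adjusted p = 0.427) and 0.71 in labelled mutant arrays (SE 0.364, adjusted p = 0.814). Averaged over genotypes it was 0.74 (adjusted p = 0.237), and by replicate number 1.44, 0.21 and 0.57. All saline values lay below the level of 4 required for testing, so the size of the change is not well measured. Its adjusted p was 0.0381 with the block, and without the arrays numbered 1 it was 0.0298 at a change of 0.39, where 1 of the remaining 8 values lay over 4. Neither is counted as a call here.

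Spry2 rose in both genotypes. Its log2 values were 8.61, 9.03 and 8.93 in control saline arrays and 10.11, 10.02 and 10.31 in control kainate arrays. With the mutant label they were 8.86, 9.22 and 8.97 with saline and 10.32, 10.75 and 10.26 with kainate. All 6 kainate arrays lay above all 6 saline arrays. The rise was 1.29 in controls (2.45-fold, SE 0.165, adjusted p = 0.0099) and 1.43 in labelled mutant arrays (2.69-fold, SE 0.165, adjusted p = 0.00457). In controls the call was lost in 5 of 12 fits with 1 array left out, namely without control saline replicate 1 (adjusted p = 0.0518) or 3 (0.0638) or without control kainate replicate 1 (0.052), 2 (0.0534) or 3 (0.0774), where the change stayed between 1.17 and 1.35. The labelled mutant call held in all 12. Both calls were lost when only the compared groups were fitted (adjusted p = 0.0754 in controls and 0.146 in labelled mutant arrays).

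Spry1 showed a smaller change that passed when the genotypes were averaged. It read 5.24, 5.16 and 5.30 in control saline arrays and 6.00, 6.07 and 5.57 in control kainate arrays. Labelled mutant arrays read 5.20, 5.51 and 4.86 with saline and 5.84, 6.15 and 6.04 with kainate. The groups did not overlap in either genotype, a pattern of higher values in both that 1.45% of all tested probe sets showed. The change was 0.65 in controls (SE 0.184, adjusted p = 0.401) and 0.82 in labelled mutant arrays (SE 0.184, adjusted p = 0.296), and averaged it was 0.73 (1.66-fold, SE 0.13, adjusted p = 0.0473, with the block 0.00915). With 1 array left out the averaged call held in 3 of 12 fits, those without control kainate replicate 3, labelled mutant saline replicate 2 or labelled mutant kainate replicate 1. It was lost in the other 9, with a change between 0.65 and 0.75 and adjusted p from 0.0571 to 0.165. It was also lost when arrays were centred on their medians (adjusted p = 0.148) or when no filter on low values was used (adjusted p = 0.0719). By replicate number the averaged change was 0.70, 0.77 and 0.73.

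**Figure D3:**
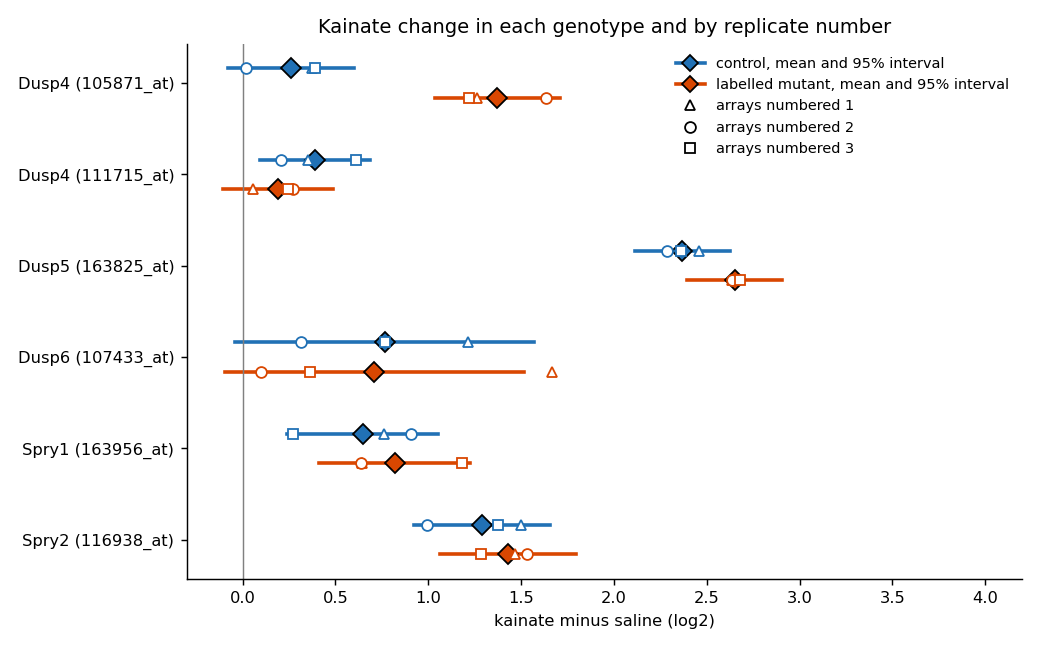
Kainate minus saline in log2 units (x axis) for each probe set (y axis), with diamonds for the mean of 3 arrays per group, bars for the 95% interval, and open symbols for the change within each replicate number. Dusp5 lay between 2.29 and 2.68 in every number and both genotypes, whereas Dusp6 lay at 1.21 and 1.67 for number 1 and between 0.10 and 0.77 for the others.

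Markers of other cell types are given beside these changes. Averaged over genotypes, kainate gave no call in their lists. The mean log2 level of the interneuron markers (3 of 11 tested, Gad2, Cnr1 and Maf) was 7.91 to 8.17 with saline and 6.87 to 7.56 with kainate in controls, and 7.88 to 8.18 and 7.47 to 7.91 in arrays labelled mutant. That of the choroid plexus markers (2 of 10 tested, Clic6 and Sostdc1) was 7.07 to 7.20 with saline and 5.72 to 6.72 with kainate in controls, and 6.14 to 7.73 and 6.28 to 7.30 in arrays labelled mutant. The astrocyte markers (7 of 12 tested) lay at 9.36 to 9.51 and 9.27 to 9.32 in controls. Their part in the changes of the 6 probe sets was not tested. In bulk tissue, fewer cells of a type and less RNA per cell cannot be told apart.

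The next comparison, that of the series title, asked whether the response differed between genotypes. None of the 6 probe sets passed the test of the difference, and none of the 6334 did by limma, with or without the block (0%). Without adjustment 147 probe sets had p under 0.05, or 566 with the block. The kainate change of the first Dusp4 probe set was larger by 1.11 in arrays labelled mutant (95% interval 0.63 to 1.59, SE 0.216). It had the smallest p-value of all probe sets without the block, and its adjusted p was 1 without the block and 0.281 with it. It was larger in all 3 replicate numbers, by 0.89, 1.62 and 0.83. For the second Dusp4 probe set the difference was -0.20 (95% interval -0.62 to 0.22). For Dusp5 it was 0.28 (-0.08 to 0.64), for Spry2 0.14 (-0.38 to 0.65), for Spry1 0.17 (-0.40 to 0.75) and for Dusp6 -0.06 (-1.20 to 1.08). With the block the Dusp5 interval was 0.015 to 0.548, and its limma adjusted p was 0.552. The intervals without the block leave room for sizable differences in both directions for Spry1, Spry2 and Dusp6, so equal responses are not shown. Centring each array on its median shifts this comparison by 0.19 log2 units for every probe set, and the Dusp6 value then was 0.13.

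The genotypes were also compared within each treatment. With saline none of the 6 probe sets passed and none of all tested ones did (0%, with 246 at unadjusted p under 0.05), and the differences of labelled mutant minus control lay between -0.04 for Spry1 and 0.19 for the first Dusp4 probe set. Saline values overlapped between genotypes for each of the 6. After kainate 1 of the 6 passed, the first Dusp4 probe set, where 0.0316% of all probe sets passed as higher. It was higher by 1.30 in arrays labelled mutant (2.46-fold, SE 0.152, adjusted p = 0.0108, with the block 0.00311), and by 1.14, 1.68 and 1.07 for numbers 1, 2 and 3. Its kainate values did not overlap between genotypes, and neither did those of Dusp5, where 3.09% of tested probe sets were higher in this way. The call was lost without control kainate replicate 1 (adjusted p = 0.0641), 2 (0.0973) or 3 (0.0585) and without labelled mutant kainate replicate 3 (0.0523), with the difference between 1.27 and 1.37, and when only the compared groups were fitted (0.373). Dusp5 was 0.34 above control after kainate (95% interval 0.08 to 0.59, adjusted p = 0.914). Spry2 stood at 0.30 (adjusted p = 0.914) and Spry1 at 0.13, and the second Dusp4 probe set and Dusp6 at -0.03 and -0.00. Averaged over treatments 1 of the 6 passed, the first Dusp4 probe set, at 0.74 (adjusted p = 0.0244), where 0.0632% of all probe sets passed as higher. With 1 array left out that call held in 3 of 12 fits, those without control saline replicate 2 or labelled mutant kainate replicate 1 or 2. It was lost in the other 9, with adjusted p from 0.0552 to 0.11.

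The levels of cell type markers are given beside the genotype comparisons. Microglia markers (4 of 10 tested) had a mean log2 level of 5.50 to 5.64 with saline and 5.72 to 5.88 with kainate in controls, and of 5.89 to 6.35 and 6.33 to 6.57 in arrays labelled mutant, and 1 of the 4, Plek, passed as higher over both treatments (1.24, adjusted p = 0.042). The remaining tested microglia markers, Olfml3, Siglech and Tmem119, stood at 0.62, 0.61 and 0.10 over both treatments and did not pass. Astrocyte markers lay at 9.63 to 9.80 with saline and 9.46 to 9.62 with kainate in arrays labelled mutant, above their control ranges. Principal neuron markers lay at 8.19 to 8.34 in labelled mutant kainate arrays and at 8.52 to 8.66 in control kainate arrays. No astrocyte or principal neuron marker passed over both treatments. Their part in the Dusp4 difference was not tested.

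The other genes of the pathway were taken from lists by role. These lists were chosen with earlier results of these data known, so counts within them are a description and no independent support. Of 123 listed genes 45 were on the array and 41 were tested, each through its tested probe set with the highest mean. For kainate averaged over genotypes 4 of the 41 passed, where 0.3% of all tested probe sets passed as higher. All 4 were among the targets and effectors of ERK, whose list had a median of 0.56 over 8 tested genes. They were Maff, a small Maf transcription factor (2.40), the pseudokinase gene Trib1 (2.38), the nuclear factor gene Csrnp1 (2.19) and the AP-1 subunit gene Fosl2 (1.04). The lowest of that list was a probe set of Srf, which encodes serum response factor, at -0.43 (adjusted p = 0.203). Both remaining Srf probe sets had the opposite sign, at 0.73 (adjusted p = 0.108) and 0.64 (adjusted p = 0.0978), and passed as higher with the block (adjusted p = 0.0133 and 0.0135).

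By the probe set that stood for it, no gene of the other lists passed, and their medians lay between -0.14 and 0.07. Of the other MAP kinase phosphatases 7 of 15 were tested, with a median of 0.02, from Dusp8 at 0.24 to Dusp7, a cytoplasmic ERK phosphatase like Dusp6, at -0.45. Of the other Sprouty and Spred genes and Ras inhibitors 6 of 17 were tested, with a median of -0.04, from the Ras GTPase-activating gene Rasa2 at 0.26 to the ubiquitin ligase gene Cbl at -0.42. Spry3 stood at -0.26 (adjusted p = 0.248). Among 11 receptors and adaptors the range ran from the adaptor gene Shc2 at 0.27 to Sos1, a Ras exchange factor, at -0.40. The 5 kinases and scaffolds ran from Mknk1 at 0.14 to the scaffold gene Ksr1 at -0.24, and the 4 ligands from Hbegf at 0.15 to Igf1 at -0.23. With the block Cbl, Sos1 and the Srf probe set at -0.43 passed as lower for kainate (adjusted p = 0.034, 0.0142 and 0.0372), where 5.42% of all probe sets passed as lower. Another Nf1 probe set, which did not stand for that Ras inhibitor gene, passed as higher for kainate with the block (0.51, adjusted p = 0.0346). Without the block it did not pass (adjusted p = 0.433), and the one that stood for Nf1 changed by -0.02. Another Elk1 probe set passed as lower with the block (-0.68, adjusted p = 0.0346) and not without it (adjusted p = 0.131). Another Fosl2 probe set passed as higher with the block (0.82, adjusted p = 0.00107). In the genotype comparisons none of the 41 passed. With the block Shc2 (-0.88), Rasgrp1 (-0.37) and Elk4 (-0.45) passed as lower in arrays labelled mutant over both treatments (adjusted p = 0.0355, 0.0328 and 0.0433), against 1.52%.

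**Figure D4:**
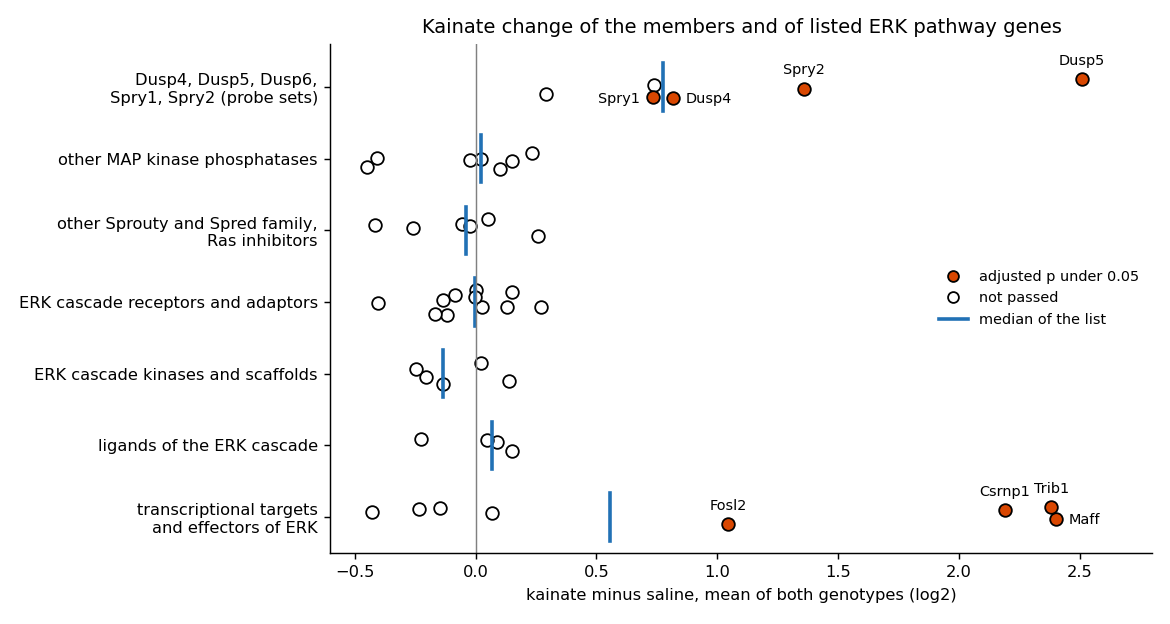
Kainate minus saline averaged over both genotypes in log2 units (x axis) for the 6 Dusp and Sprouty probe sets and for the tested genes of 6 lists of the ERK pathway (y axis), 1 probe set per listed gene. Filled points passed at an adjusted p under 0.05 and vertical lines mark the median of each list. For the 6 probe sets that line includes Dusp6, which entered the test only through kainate arrays (0.78, and 0.82 without it). Of the 41 listed genes the 4 filled ones are Fosl2, Csrnp1, Trib1 and Maff.

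Spred1, which encodes a Sprouty-related inhibitor of Ras and Raf, is given here after its values were seen, since its 5 probe sets disagreed. The one with the highest mean, which stood for the gene in the list, changed by -0.06 with kainate averaged over genotypes (adjusted p = 0.8). Of the others 111125_at fell by 1.10 (2.14-fold, SE 0.182, adjusted p = 0.0323) and 107830_at fell by 0.65 (1.56-fold, SE 0.108, adjusted p = 0.0323), where 0.111% of all probe sets passed as lower. Probe sets 163565_at and 116259_at stood at -1.01 (adjusted p = 0.0978, with the block 0.0195, where 5.42% of all probe sets passed as lower) and -0.35 (adjusted p = 0.261). Probe set 111125_at had means of 7.53 ± 0.171 (SD, n = 3) with saline and 6.41 ± 0.0767 with kainate in controls, and of 7.40 ± 0.0435 and 6.33 ± 0.651 in arrays labelled mutant. At 2 of its 5 probe sets Spred1 thus passed as lower after kainate, opposite in direction to Spry1 and Spry2. The probe set with the highest mean did not pass.

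Genes whose pattern was most like that of each inhibitor were ranked by Pearson r of log2 values over the 12 arrays, among tested probe sets of other genes. The arrays fall into saline and kainate sets and share replicate numbers across groups, so r is given as a description. Nearest to Dusp5 were the G protein regulator gene Rgs4 (0.96), the F-box gene Fbxo33 (0.96), Maff (0.96), Spry2 (0.95) and Trib1 (0.95). Nearest to Spry2 were Dusp5 (0.95), Maff (0.95), Rgs4 (0.95), Csrnp1 (0.91) and Vps35l (0.91). Spry1 was nearest to the fatty acid transporter gene Slc27a1 (0.95), Trib1 (0.91), Chid1 (0.91), the neuropeptide precursor gene Vgf (0.90) and Atxn3 (0.90). The first Dusp4 probe set shared none of these, and was nearest to Ccdc86 (0.93), Ctc1 (0.89), Fancl (0.87), Taf13 (0.87) and Ppp1r3c (0.86).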

How the data were processed

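Hippocampal RNA was profiled on 12 Affymetrix MG-U74B arrays, 3 in each of 4 groups, each array holding RNA pooled from 3 animals, per the labels' protocols. The authors deposited 1 log2 value per probe set and array, with R 2.4.1 and GCRMA named in the submitters' processing notes. In GCRMA the background is modelled from probe sequence and arrays are put on 1 scale. Settings were not given in the sources used here. The log2 scale was judged from the values. Of 12477 entries 66 were controls. Of the rest 10581 had 1 gene symbol, 178 several and 1652 none, and 10550 matched the gene table of GRCm38.p6. The deposited values were fitted with limma 3.58.1 in R 4.3.3, with 1 mean per group over all 12 arrays, eBayes with an intensity trend, and Benjamini-Hochberg adjustment over all tested probe sets of a comparison, at 0.05. Calculations were tested on simulated data. Replicates are called biological in the labels. P-values measure the spread between pools, which without the block also holds what arrays of 1 replicate number share.

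Groups share the replicate numbers 1, 2 and 3. Same-numbered arrays of different groups deviated from their group means together in all 18 pairings (r from 0.361 to 0.881), so the numbers pair the arrays, and blocked values stand beside results they change. What a number stands for is not given in the labels. The genes and lists were chosen with earlier results of these data known. All probe sets of the 5 genes are described. Named besides them are listed pathway genes that passed, the highest and lowest of each list for kainate, and the 5 genes of highest r to each inhibitor that passed. A listed gene was taken by its tested probe set with the highest mean.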

Additional observations from a re-analysis of the deposited data

How the results depend on the processing

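Settings beside the one reported were the replicate block, the block with quantile normalization, median centring, quantile normalization, no filter, a stricter filter (over 5 in at least 6 arrays, which dropped Dusp6 and the second Dusp4 probe set), no intensity trend, fits of the compared groups alone, fits without the arrays numbered 1, and fits without 1 array. Changes of single probe sets and of the Dusp4 pair difference gave 920 values under these settings. Of them 847 kept their direction and side of the threshold, 33 were called no longer, 9 came newly under the threshold and 31 changed sign. Most of the 920 values belong to changes not called in the reported fit, which could not lose a call. Dusp6, not counted as a call, is among the 9. With the compared groups alone, 1 probe set passed for kainate in controls and 1 in labelled mutant arrays, and 0 for genotype after kainate. In these fits 6 arrays estimate the spread, and why calls were lost was not tested. Without 1 array 1 to 2 passed for kainate in controls, 3 to 4 in the average, and 0 to 1 for genotype after kainate and over both treatments. The paired fit with the replicate block left the counts of called probe sets as they were in 6 of 7 comparisons. In the other, Dusp6 came under the threshold. This is not counted as a call, since its place among the tested probe sets already favours a higher kainate level. For the Dusp4 pair the replicate block kept the difference and newly called it, at 1.18 for kainate in labelled mutant arrays, 1.33 for genotype after kainate and 0.53 for kainate averaged. It was 1.17 without the arrays numbered 1, and 1.15 to 1.51 for genotype after kainate without 1 array.

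Changes of sign were among differences that passed in no setting. With median centring they were Dusp5 with saline (-0.036), the second Dusp4 probe set after kainate (0.064) and Dusp6 in the difference of responses (0.13), with saline (-0.037) and after kainate (0.094). With quantile normalization, alone or with the block, Dusp6 gave 0.11, -0.056 and 0.059 in those comparisons. Without the arrays numbered 1 the second Dusp4 probe set gave 3.13e-06 after kainate. Without 1 array, Dusp6 ran from -0.50 to 0.27 for the difference, -0.014 to 0.16 with saline, -0.45 to 0.33 after kainate and -0.20 to 0.19 over treatments. Spry2 ran from -0.014 to 0.26 for the difference, Spry1 from -0.20 to 0.12 with saline, -0.025 to 0.23 after kainate and -0.037 to 0.13 over treatments, and the second Dusp4 probe set from -0.14 to 0.061 after kainate. The cause of these changes was not tested. Median centring shifted kainate in controls by 0.14. After subtracting the means of the replicate numbers, 5 of the 5 genes nearest to Dusp5, 3 of those of Spry1 and Spry2 and 2 of those of Dusp4 were kept.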
